A study of Mus musculus with 18 samples.

Results

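Fcgr1, Fcgr2b, Fcgr3, Fcgr4, Fcer1g and Fcgrt, the genes of the mouse receptors for the constant part of IgG, were followed in whole lung across 2 mouse strains and 3 treatments. They are 6 of the 18193 genes that the array measures with at least 1 probe set naming that gene alone, and each is represented by its probe set with the highest mean over all 18 arrays. The lungs were those of male A/J and C57BL/6 mice, 9 of each strain and all aged 16 weeks. Every mouse, the PBS controls included, had received the egg protein ovalbumin as a sensitizing allergen, in 3 weekly intraperitoneal doses of 100 µg in alum. Beginning 7 days after the last dose they inhaled an aerosol for 30 min on 3 consecutive days: PBS in the PBS groups, 1% ovalbumin in the ovalbumin groups, and 1% ovalbumin in the resiquimod groups, which also received 100 µg of the Tlr7 agonist resiquimod intraperitoneally on 3 consecutive days from the day before the first challenge. Each of the 6 groups has 3 arrays. No group received resiquimod without ovalbumin and no vehicle injection is listed for the other groups, so effects of resiquimod itself, of the injection and on the response to ovalbumin cannot be told apart.

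IgG bound to antigen engages Fc gamma receptors on macrophages, monocytes, neutrophils, dendritic cells, NK cells and B cells. The receptors encoded by Fcgr1, Fcgr3 and Fcgr4 signal through the Fcer1g chain, whose ITAM motif recruits the kinase Syk and drives phagocytosis, the oxidative burst and cytokine release, while Fcgr2b carries an ITIM motif that recruits the phosphatase SHIP1 and restrains those signals. The ratio of activating to inhibitory receptors on a cell is known to set its threshold for immune complexes: interferon gamma and complement C5a are known to favour the activating receptors and interleukin 4 the inhibitory one. Fcgrt encodes the neonatal receptor FcRn, which pairs with beta-2 microglobulin and protects IgG and albumin from degradation, and it has no ITAM or ITIM.

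Fcgr2b, Fcgr4, Fcgr3 and Fcer1g are neighbours on chromosome 1, Fcgr1 lies on chromosome 3 and Fcgrt on chromosome 7. RefSeq promoter sequences (GRCm38.p6, 250 bases before to 50 after the annotated start, from the C57BL/6J reference and not from A/J) matched all 6 genes. They were searched on both strands for the GAS element TTCNNNGAA bound by STAT factors, the interferon regulatory factor element GAAANNGAA (TTCNNTTTC on the other strand) and the PU.1 element GAGGAA. These letters occur in 8.3%, 8.56% and 28.3% of the 32851 promoters of the same length. The 3 promoters shown belong to the activating receptor genes with the largest rises after resiquimod relative to ovalbumin in A/J and to the inhibitory receptor gene, and capitals mark the matches.
Fcgr1 promoter, chr3:96293920-96294219, minus strand: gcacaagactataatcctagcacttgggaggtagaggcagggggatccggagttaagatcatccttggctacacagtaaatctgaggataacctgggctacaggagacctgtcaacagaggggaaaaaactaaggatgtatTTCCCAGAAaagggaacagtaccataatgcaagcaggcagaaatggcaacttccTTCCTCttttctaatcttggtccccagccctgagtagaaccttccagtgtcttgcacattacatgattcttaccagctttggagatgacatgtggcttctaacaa
Fcgr4 promoter, chr1:171018676-171018975, plus strand: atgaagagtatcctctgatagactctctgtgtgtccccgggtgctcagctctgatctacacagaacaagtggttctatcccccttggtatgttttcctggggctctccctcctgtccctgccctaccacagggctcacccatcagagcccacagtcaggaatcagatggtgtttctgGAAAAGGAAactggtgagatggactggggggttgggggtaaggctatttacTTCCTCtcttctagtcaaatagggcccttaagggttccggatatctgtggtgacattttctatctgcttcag
Fcgr2b promoter, chr1:170976022-170976321, minus strand: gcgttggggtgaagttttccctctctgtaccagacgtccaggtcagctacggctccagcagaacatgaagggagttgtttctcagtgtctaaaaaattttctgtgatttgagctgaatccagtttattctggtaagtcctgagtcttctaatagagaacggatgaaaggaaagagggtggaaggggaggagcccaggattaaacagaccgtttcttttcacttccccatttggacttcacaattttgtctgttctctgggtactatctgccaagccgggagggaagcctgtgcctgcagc
The GAS match of Fcgr1 reads TTCCCAGAA and begins at -109 from the start, and its PU.1 match begins at -55. In Fcgr4 the interferon regulatory factor match GAAAAGGAA begins at -73 and the PU.1 match at -22. Fcgr3 has a PU.1 match at -6 or -15, depending on which of its annotated starts is used, and no other match. Every PU.1 match reads TTCCTC, the element on the opposite strand. The windows of Fcgr2b, Fcer1g and Fcgrt hold none of these letters. A match is a stretch of letters in the reference, and binding was not measured.

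The arrays give log2 expression, normalized by the authors, and values of different genes' probe sets are not compared with each other, since probes differ in brightness. A gene was called at an adjusted p under 0.05 in limma's moderated test, with Benjamini-Hochberg adjustment over 45037 probe sets. The tissue label was borne out by 9 lung epithelial marker genes, whose mean lay between 11.02 and 11.36 in every array. In 8 of the 18 arrays, at least 1 in each group, 9 squamous epithelium genes averaged 6.76 to 8.12, against 3.80 to 4.48 in the other 10. The same 8 arrays and A/J PBS array 3 also had high skeletal muscle genes, with a list mean of 8.40 to 9.83 against 4.23 to 5.56 in the remaining 9, so leaving out the 8 arrays keeps 1 with muscle transcripts. Values without those 8 arrays, which leaves 1 A/J ovalbumin array and 1 C57BL/6 PBS array, are given where they change a call. In whole lung, more cells of a type and more RNA per cell cannot be told apart.

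**Figure D1:**
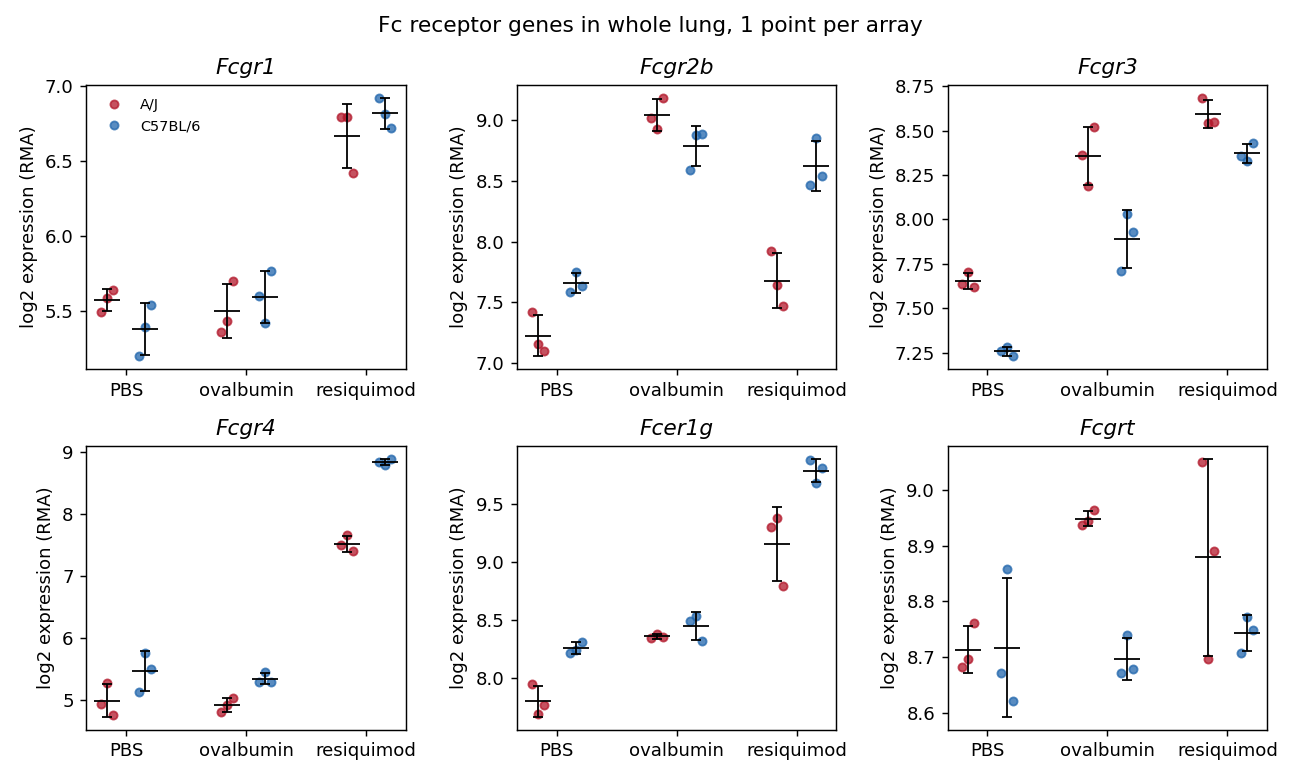
Log2 expression (vertical axes) of the 6 Fc receptor genes by treatment (horizontal axes) in A/J (red) and C57BL/6 (blue); each point is 1 array, horizontal lines are group means and bars are SD with n = 3. Fcgr4 and Fcgr1 are high in the resiquimod groups alone, Fcgr2b is high in the ovalbumin groups of both strains but near the PBS level in A/J after resiquimod, and Fcgrt spans 8.62 to 9.05 over all arrays.

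Among the activating receptors, Fcgr4 had the widest span, 15.1-fold between the lowest and the highest group mean. It encodes FcγRIV, a receptor for IgG2a and IgG2b known from nonclassical monocytes, macrophages and neutrophils. In A/J mice its log2 level was 4.93, 5.27 and 4.76 in the PBS arrays, 4.81, 4.91 and 5.03 in the ovalbumin arrays and 7.49, 7.65 and 7.39 in the resiquimod arrays. In C57BL/6 mice it was 5.12, 5.75 and 5.50 with PBS, 5.28, 5.45 and 5.29 with ovalbumin and 8.84, 8.78 and 8.89 with resiquimod. The resiquimod groups of either strain stood above all other arrays, and the C57BL/6 resiquimod arrays above the A/J ones, while the PBS and ovalbumin arrays overlapped within each strain. Relative to ovalbumin, Fcgr4 rose by 2.59 ± 0.14 (SE, n = 3 per group) in A/J, a 6.03-fold change with adjusted p = 1.12e-08, and by 3.50 ± 0.14 in C57BL/6, 11.3-fold with adjusted p = 1.82e-10. Ovalbumin against PBS gave -0.07 in A/J (95% interval -0.36 to 0.23) and -0.12 in C57BL/6 (-0.42 to 0.18), neither called.

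Fcgr1 encodes the high-affinity receptor FcγRI of monocytes and macrophages, a classical target of interferon gamma. In A/J its log2 level was 5.49, 5.59 and 5.64 with PBS, 5.36, 5.43 and 5.70 with ovalbumin and 6.79, 6.79 and 6.42 with resiquimod. In C57BL/6 the arrays gave 5.20, 5.40 and 5.54, then 5.60, 5.42 and 5.77, then 6.92, 6.81 and 6.72 in the same order of treatments. The PBS and ovalbumin arrays lay between 5.20 and 5.77 and the 6 resiquimod arrays between 6.42 and 6.92, with overlap between the strains at each treatment. Fcgr1 rose with resiquimod relative to ovalbumin by 1.17 ± 0.12 in A/J (2.25-fold, adjusted p = 1.45e-05) and by 1.22 ± 0.12 in C57BL/6 (2.33-fold, adjusted p = 8.04e-06). Its other probe set, with a mean of 4.36, gave 0.36 and 0.18 and neither was called (adjusted p = 0.0932 and 0.467), so the call rests on the brighter probe set. With ovalbumin alone the change was -0.08 in A/J (interval -0.33 to 0.18) and 0.22 in C57BL/6 (-0.04 to 0.47), not called in either strain.

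Fcgr3 behaved differently from the other activating receptors in that ovalbumin alone was followed by a rise. It encodes the low-affinity receptor FcγRIII, which binds immune complexes on macrophages, neutrophils, mast cells and NK cells. Its log2 level in A/J was 7.64, 7.71 and 7.62 with PBS, 8.36, 8.19 and 8.52 with ovalbumin and 8.68, 8.54 and 8.55 with resiquimod. C57BL/6 arrays gave 7.26, 7.28 and 7.23 with PBS, 7.71, 8.03 and 7.93 with ovalbumin and 8.36, 8.33 and 8.43 with resiquimod. No treatment group overlapped another within a strain, and A/J lay above C57BL/6 at each treatment without overlap. Relative to PBS, ovalbumin raised Fcgr3 by 0.70 ± 0.09 in A/J (1.63-fold, adjusted p = 1.59e-04) and by 0.63 ± 0.09 in C57BL/6 (1.55-fold, adjusted p = 7.97e-04). Without the arrays holding squamous transcripts these changes were 0.53 and 0.70 and neither passed (adjusted p = 0.164 and 0.0513). Resiquimod added 0.48 ± 0.09 in C57BL/6 (adjusted p = 0.00213) and 0.24 ± 0.09 in A/J, which was not called (adjusted p = 0.131, interval 0.05 to 0.42).

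Fcer1g, the signalling chain that the activating receptors share with the IgE receptor and several lectins, moved with them after resiquimod. In A/J its log2 level was 7.94, 7.68 and 7.76 with PBS, 8.34, 8.38 and 8.35 with ovalbumin and 9.30, 9.38 and 8.79 with resiquimod. In C57BL/6 the values were 8.21, 8.24 and 8.31 with PBS, 8.49, 8.53 and 8.31 with ovalbumin and 9.88, 9.67 and 9.80 with resiquimod. Both resiquimod groups stood above the ovalbumin groups without overlap. The rise relative to ovalbumin was 0.80 ± 0.12 in A/J (1.74-fold, adjusted p = 4.63e-04) and 1.34 ± 0.12 in C57BL/6 (2.53-fold, adjusted p = 2.68e-06). Without the arrays holding squamous transcripts the A/J change was 0.71 with adjusted p = 0.193. Ovalbumin alone raised it by 0.56 ± 0.12 in A/J (adjusted p = 0.0153), a call that was lost without A/J PBS array 2, A/J PBS array 3 or A/J ovalbumin array 3 (0.50, 0.54 and 0.56, adjusted p = 0.0788, 0.0631 and 0.0576) and without the squamous arrays (0.66, adjusted p = 0.448). In C57BL/6 ovalbumin gave 0.19 ± 0.12, not called (adjusted p = 0.639).

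Fcgr2b, the inhibitory receptor of B cells, macrophages, dendritic cells and mast cells, followed another course. In A/J its log2 level was 7.42, 7.16 and 7.10 with PBS, 9.02, 8.93 and 9.19 with ovalbumin and 7.93, 7.65 and 7.47 with resiquimod. In C57BL/6 it was 7.59, 7.75 and 7.64 with PBS, 8.60, 8.88 and 8.89 with ovalbumin and 8.47, 8.86 and 8.54 with resiquimod. The ovalbumin arrays lay above the PBS arrays in both strains. After resiquimod the A/J arrays had 7.47 to 7.93, just above their PBS arrays, while the C57BL/6 arrays overlapped the ovalbumin arrays. Ovalbumin raised Fcgr2b by 1.82 ± 0.13 in A/J (3.52-fold, adjusted p = 3.32e-07) and by 1.13 ± 0.13 in C57BL/6 (2.19-fold, adjusted p = 9.75e-05). Resiquimod with ovalbumin against ovalbumin gave a fall of 2.57-fold in A/J (log2 -1.36 ± 0.13, adjusted p = 4.80e-06) and -0.17 ± 0.13 in C57BL/6, not called (adjusted p = 0.529, interval -0.44 to 0.11).

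Fcgr2b is measured by 5 single-gene probe sets, and the 4 brighter ones moved alike. For ovalbumin against PBS they gave 1.82, 1.35, 1.56 and 1.77 in A/J and 1.13, 0.82, 0.85 and 0.88 in C57BL/6. For resiquimod with ovalbumin against ovalbumin they gave -1.36, -0.96, -1.11 and -1.34 in A/J and -0.17, -0.05, 0.05 and 0.00 in C57BL/6. The fall in A/J therefore appears in each of these 4 probe sets, while in C57BL/6 they lie on both sides of 0. All but the dimmest of these 4 have the same source sequence in the annotation, so they are not independent measurements. The weakest probe set, with a mean of 2.57, gave between -0.13 and 0.10 in all comparisons of groups. By the suffixes of their names, some of these probe sets share probes between transcripts, which for the first and, for single probes, the third may include transcripts of other genes, so signal from related Fc receptor genes was not separated by the design.

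Fcgrt, the neonatal receptor of endothelium, epithelium and macrophages, was nearly level. A/J arrays gave log2 levels of 8.68, 8.70 and 8.76 with PBS, 8.94, 8.94 and 8.96 with ovalbumin and 9.05, 8.70 and 8.89 with resiquimod. C57BL/6 arrays gave 8.67, 8.86 and 8.62 with PBS, 8.67, 8.74 and 8.68 with ovalbumin and 8.71, 8.77 and 8.75 with resiquimod. The A/J ovalbumin arrays stood above the A/J PBS arrays, and each pair of groups next to each other in the order of the means overlapped. No comparison called it. The A/J ovalbumin change was 0.24 ± 0.08 (adjusted p = 0.147, interval 0.06 to 0.41), and all other treatment changes were between -0.07 and 0.17. Of its partners, B2m, the light chain of FcRn, rose with resiquimod relative to ovalbumin by 0.40 in A/J and 0.51 in C57BL/6, while Alb was not called in either strain. A/J ovalbumin array 1 and A/J resiquimod array 3 had Alb at 10.1 and 11.3, and the other 16 arrays lay between 3.15 and 4.51.

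**Figure D2:**
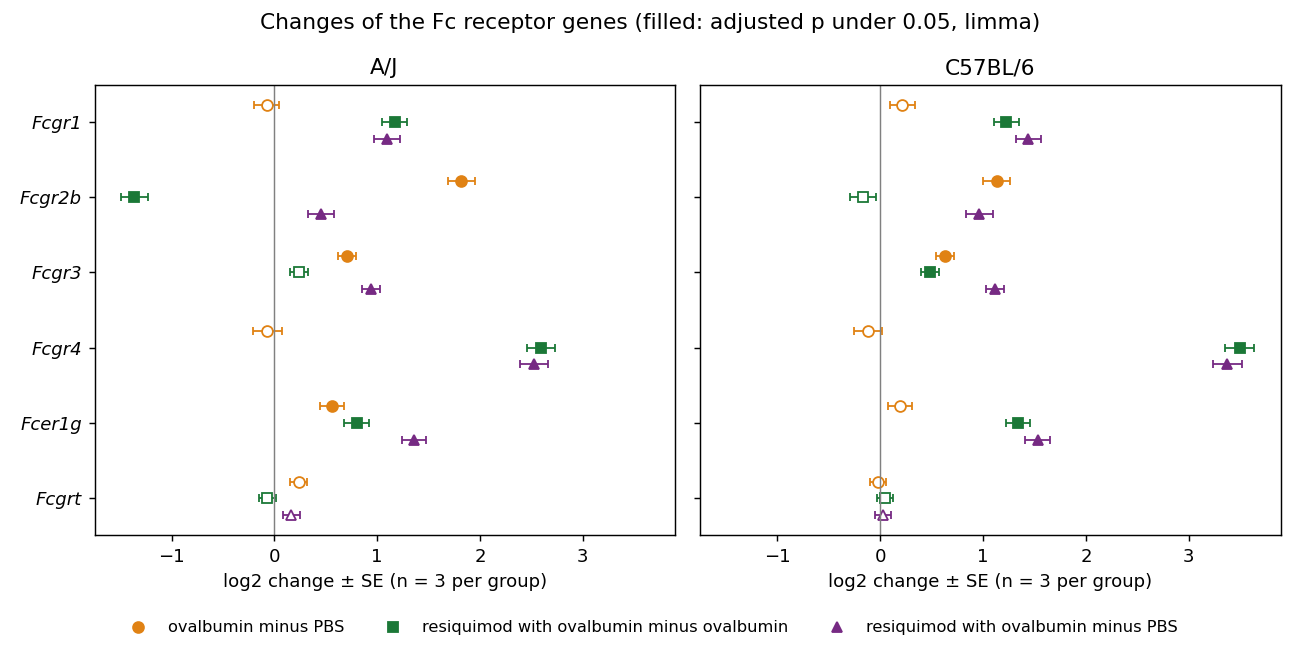
Log2 change with SE (horizontal axes, n = 3 per group) of each Fc receptor gene (rows) in A/J (left) and C57BL/6 (right) for 3 comparisons of treatments; filled symbols are called at an adjusted p under 0.05. Fcgr2b moves by 1.82 with ovalbumin and by -1.36 with resiquimod in A/J, while Fcgr4 moves by 2.59 and 3.50 with resiquimod.

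Counted together, 3 of the 6 genes rose with ovalbumin in A/J (Fcgr2b, Fcgr3 and Fcer1g) and none fell, where 3.2% of all 18193 genes were called higher and 1.18% lower. In C57BL/6, 2 rose (Fcgr2b and Fcgr3) and none fell, against 1.44% and 0.154% of all genes. With resiquimod relative to ovalbumin, 3 rose and 1 fell in A/J, where 4.38% of genes were called higher and 5.39% lower, and 4 rose and none fell in C57BL/6, against 5.8% and 4.6%. The median change of the 6 genes was 0.40 and 0.20 with ovalbumin and 0.52 and 0.85 with resiquimod, in A/J and C57BL/6, and the median over all genes lay between -0.02 and 0.00. None of the uncalled genes had an unadjusted p under 0.05 for a fall in these comparisons. The ovalbumin arrays enter both comparisons of a strain.

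Relative to PBS, the mice given resiquimod and ovalbumin had 5 of the 6 genes higher in either strain and none lower, where 5.86% of all genes were called higher and 5.27% lower in A/J and 9.61% and 7.16% in C57BL/6. Fcgr4 rose by 2.52 ± 0.14 in A/J and 3.37 ± 0.14 in C57BL/6, Fcer1g by 1.36 ± 0.12 and 1.53 ± 0.12, Fcgr1 by 1.09 ± 0.12 and 1.44 ± 0.12, and Fcgr3 by 0.94 ± 0.09 and 1.11 ± 0.09. The adjusted p of these 8 changes lay at or below 2.26e-05, though Fcgr1 was called by its brighter probe set alone. Fcgr2b was higher by 0.96 ± 0.13 in C57BL/6 (adjusted p = 7.74e-05). In A/J its rise was 0.45 ± 0.13 (adjusted p = 0.0396), and it was lost with its next probe set (0.39, adjusted p = 0.0563), in a fit to these groups alone (adjusted p = 0.109), without the squamous arrays (0.43, adjusted p = 0.0517) and without any 1 of A/J PBS arrays 2 and 3, A/J resiquimod arrays 1 and 2 and C57BL/6 PBS array 3, where it was 0.33 to 0.47 with adjusted p from 0.0507 to 0.171.

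**Figure D3:**
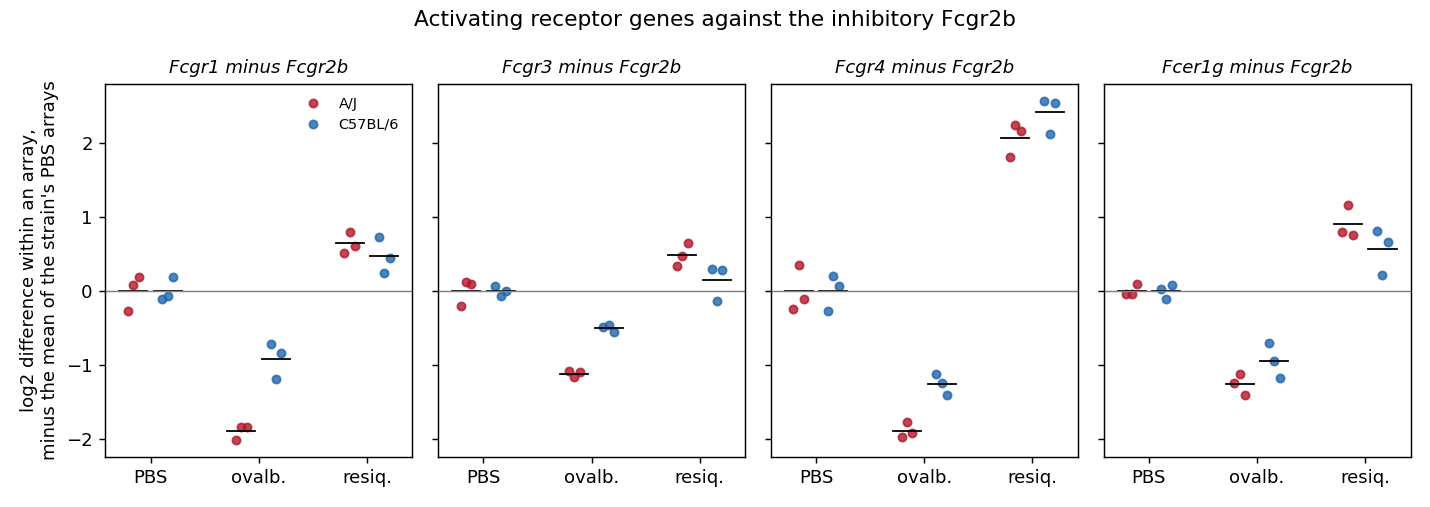
Log2 difference of each activating gene minus Fcgr2b within an array, set to the mean of the strain's PBS arrays (vertical axis), by treatment; each point is 1 array and lines are group means. All 6 ovalbumin arrays lie below 0 in every panel, and all 6 resiquimod arrays lie above 0 except 1 C57BL/6 array for Fcgr3, at -0.13.

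The balance of activating to inhibitory receptor transcripts was described as the log2 difference of each activating gene and Fcgr2b within an array, for which only shifts between groups have a meaning. It pools the transcripts of all cells in the lung and is not the ratio of receptors on a cell. No p is given, since it is a score over the chosen genes. The SE of its shifts comes from the spread of the compared groups alone, unlike limma's SE, which uses all arrays. After ovalbumin it shifted toward Fcgr2b: relative to PBS the change in A/J was -1.89 ± 0.15 (SE) for Fcgr1, -1.11 ± 0.11 for Fcgr3, -1.88 ± 0.19 for Fcgr4 and -1.26 ± 0.09 for Fcer1g. In C57BL/6 the corresponding changes were -0.92 ± 0.17, -0.50 ± 0.05, -1.25 ± 0.16 and -0.94 ± 0.15. None of these groups overlapped. The same rise of Fcgr2b, 1.82 in A/J and 1.13 in C57BL/6, enters each of these shifts. No activating gene was called lower with ovalbumin: Fcgr1 gave -0.08 and 0.22 and Fcgr4 -0.07 and -0.12. Fcgr3 gave 0.70 and 0.63 and Fcer1g 0.56 and 0.19, in A/J and C57BL/6. In the A/J PBS and ovalbumin arrays Fcgr4 read 4.76 to 5.27, near the median of all values, 4.78. A fall there may be hard to see.

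Resiquimod shifted it the other way relative to ovalbumin. In A/J the changes were 2.53 ± 0.10 for Fcgr1, 1.60 ± 0.10 for Fcgr3, 3.96 ± 0.15 for Fcgr4 and 2.16 ± 0.16 for Fcer1g. In C57BL/6 they were 1.39 ± 0.20, 0.65 ± 0.14, 3.66 ± 0.17 and 1.51 ± 0.22, again with no overlap. In A/J the fall of Fcgr2b by 1.36 enters each of these shifts, beside the rises of Fcgr4, Fcgr1 and Fcer1g. The Fcgr3 shift of 1.60 there holds an Fcgr3 change of 0.24, which was not called. In C57BL/6 Fcgr2b itself changed by -0.17. Relative to PBS the shift after resiquimod was 0.64 for Fcgr1, 0.48 for Fcgr3, 2.07 for Fcgr4 and 0.91 for Fcer1g in A/J and 0.47, 0.15, 2.41 and 0.57 in C57BL/6, where the Fcgr3 arrays overlapped. With the next probe set of Fcgr2b the ovalbumin shifts of Fcgr3, Fcgr4 and Fcer1g were -0.65, -1.42 and -0.79 in A/J and -0.19, -0.94 and -0.63 in C57BL/6. With the next probe sets of both Fcgr1 and Fcgr2b, the Fcgr1 shift was -1.37 and -0.64 after ovalbumin and 1.32 and 0.23 after resiquimod, in A/J and C57BL/6.

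Between the strains, A/J against C57BL/6 under PBS gave 1 gene higher and 3 lower, where 4.46% of all genes were called higher and 4.56% lower. Fcgr3, Fcgr4 and Fcer1g each have 1 single-gene probe set, and sequence differences between the strains under the probes were not examined. Fcgr3 was higher in A/J by 0.40 ± 0.09 (adjusted p = 0.00702; 0.38 with adjusted p = 0.132 without the squamous arrays). Fcer1g gave -0.46 ± 0.12 (adjusted p = 0.0221), Fcgr4 -0.47 ± 0.14 (adjusted p = 0.0452) with overlapping arrays, and Fcgr2b -0.43 ± 0.13 (adjusted p = 0.0494). These last calls were marginal. The Fcer1g call was lost without A/J PBS array 2 or 3 or C57BL/6 PBS array 2 or 3, at -0.40 to -0.47 with adjusted p from 0.0559 to 0.106. The Fcgr4 call held in only 4 of the 18 fits that leave out 1 array, those without A/J PBS array 2, A/J resiquimod array 2 or 3 or C57BL/6 PBS array 1, and ranged from -0.64 to -0.33 with adjusted p up to 0.215. It did not pass in a fit to these groups alone (adjusted p = 0.166). The Fcgr2b call held in only 6, those without A/J PBS array 1, A/J resiquimod array 1 or 3, C57BL/6 ovalbumin array 1 or C57BL/6 resiquimod array 1 or 2, and ranged from -0.53 to -0.37 with adjusted p up to 0.188. Without the squamous arrays Fcgr4 was at -0.74 and Fcer1g at -0.52 (adjusted p = 0.115 and 0.325).

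Under ovalbumin, 1 gene was higher in A/J and none lower, where 4.29% of all genes were called higher and 4.98% lower. That gene was Fcgr3, at 0.47 ± 0.09 (adjusted p = 0.00191), but it did not pass in a fit to these groups alone (adjusted p = 0.0604) or without the squamous arrays (0.21, adjusted p = 0.449). Next by p, and not called, was Fcgrt at 0.25 ± 0.08 with unadjusted p = 0.00644 and adjusted p = 0.0656. Fcgr4 followed, at -0.42 ± 0.14 with unadjusted p = 0.00823 and adjusted p = 0.0784. Fcgr4 passed in the fit to these groups alone (adjusted p = 0.0341). Under resiquimod none was higher and 3 were lower, where 7.54% were called higher and 8.92% lower. Fcgr4 was 2.50-fold lower in A/J (-1.32 ± 0.14, adjusted p = 4.54e-06), Fcgr2b 1.92-fold lower (-0.94 ± 0.13, adjusted p = 7.57e-05) and Fcer1g 1.55-fold lower (-0.63 ± 0.12, adjusted p = 0.00147), while Fcgr3 was at 0.22 ± 0.09, not called (unadjusted p = 0.0226, adjusted p = 0.118).

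Whether the strains differed in their response was tested as the difference between the changes, A/J minus C57BL/6. For ovalbumin, limma called none of the 6 genes, and it called 0.044% of all genes higher and 0.0165% lower. Of the 6, 3 had an unadjusted p under 0.05: Fcgr2b at 0.69 ± 0.18 (unadjusted p = 0.00171, adjusted p = 0.500), Fcgrt at 0.26 ± 0.11 (unadjusted p = 0.0393) and Fcer1g at 0.37 ± 0.17 (unadjusted p = 0.0446). For resiquimod relative to ovalbumin, 2 of the 6 were called lower in A/J and none higher, where 0.357% of all genes were called higher and 0.879% lower. Fcgr2b differed by -1.20 ± 0.18 (adjusted p = 0.00668), and leaving out any 1 array gave -1.32 to -1.08 with adjusted p up to 0.0228. Fcgr4 differed by -0.90 ± 0.20 (adjusted p = 0.0424), and this call held in only 5 of the 18 fits that leave out 1 array, those without A/J PBS array 2 or 3, A/J resiquimod array 2 or C57BL/6 PBS array 1 or 2, with a range of -0.97 to -0.84 and adjusted p up to 0.111. Without the squamous arrays the differences were -0.99 for Fcgr2b and -0.89 for Fcgr4, with adjusted p = 0.139 and 0.393.

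The order of the group means shows the separate courses. For Fcgr4 and Fcer1g the highest mean was that of C57BL/6 with resiquimod, followed by A/J with resiquimod, and these neighbours did not overlap. For Fcgr1 the same groups led but overlapped, and the other 4 groups each overlapped the next. For Fcgr3 the resiquimod groups led, A/J first, and C57BL/6 with resiquimod overlapped A/J with ovalbumin. For Fcgr2b the order was A/J with ovalbumin, C57BL/6 with ovalbumin and C57BL/6 with resiquimod, of which the last pair overlapped, then A/J with resiquimod and C57BL/6 with PBS, which overlapped, and A/J with PBS.

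Over the 18 arrays, which share strain and treatment, Fcgr1, Fcgr4 and Fcer1g followed each other, with Pearson r of 0.94 between Fcgr1 and Fcgr4, 0.94 between Fcgr4 and Fcer1g and 0.89 between Fcgr1 and Fcer1g. Fcgr2b was apart from them, with r of 0.04 to Fcgr1, 0.07 to Fcgr4 and 0.33 to Fcer1g. Once group means were removed, the correlations among Fcgr1, Fcgr4 and Fcer1g were 0.21 to 0.35, so the likeness lies mostly between groups. Fcgr2b then gave 0.29 to Fcgr1, 0.21 to Fcgr4 and 0.27 to Fcer1g, so it was apart from them only between groups. Its r to Fcgr3 was 0.44 over the 18 arrays and 0.54 within groups. Among 11197 genes of at least median brightness, those closest to Fcgr4 were Nkg7 (r = 0.991), Ccl5 (0.988) and Gzmb (0.981), genes of NK and cytotoxic T cells, whose deviations from the group means correlated with r of 0.49, 0.09 and 0.08. Closest to Fcer1g was Tyrobp, the other ITAM adaptor of myeloid and NK cells, at 0.991 and still 0.87 within groups, then Selplg and Slc11a1. Closest to Fcgr1 were H2-K1 (0.986), Tlr13 and Klrg1, to Fcgr2b Cd86 (0.942), Ifi30 and Ppib, to Fcgr3 Ctsa (0.968), Slc25a5 and Galnt7, and to Fcgrt Pld3 (0.900), Ccl6 and Creld2. Within groups these r were 0.71, 0.49 and 0.34 for Fcgr1 and 0.32, 0.68 and 0.61 for Fcgr2b, in the same order. For Fcgr3 they were 0.65, 0.29 and 0.30, and for Fcgrt 0.81, 0.74 and 0.71.

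Of the ITAM pathway downstream of the activating receptors, 18 of 21 listed genes were measured. With ovalbumin 2 rose in A/J, Malt1 by 0.57 and Prkcd by 0.37, and none was called in C57BL/6 by limma, where 6 had an unadjusted p under 0.05 and the largest were Vav1 at 0.49 and Btk at 0.46. With resiquimod, here and below relative to ovalbumin, 8 rose in A/J and 12 in C57BL/6, none fell, and the list's median was 0.50 and 0.84. Rac2, the GTPase of the phagocyte oxidase, rose by 0.91 in A/J and 1.69 in C57BL/6. The adaptor Blnk rose by 0.82 and 1.33, and the kinase Syk by 0.57 and 1.26. Tyrobp rose by 0.67 and 1.08, Vav1 by 0.72 and 0.94, and Lat2 by 1.26 in C57BL/6 with 0.65 in A/J, not called.

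Genes of the inhibitory side rose as well. Of 16 measured genes for ITIM receptors and their phosphatases, 9 rose with resiquimod in each strain and none fell, with medians of 0.52 and 0.51. Cd72, an ITIM receptor of B cells and macrophages, rose by 1.64 in A/J and 2.16 in C57BL/6, Cd300a by 0.92 and 1.30, Lair1 by 0.78 and 1.70, and Pirb by 0.75 and 0.94. The B cell receptor Cd22 rose by 1.37 in C57BL/6. Inpp5d, which encodes SHIP1 and is named for its tie to Fcgr2b after its values were seen, rose by 0.58 and 0.39. With ovalbumin 2 of the 16 rose in A/J, Clec4a2 by 0.80 and Dok2 by 0.68, and 1 in C57BL/6, Dok2 by 0.91.

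**Figure D4:**
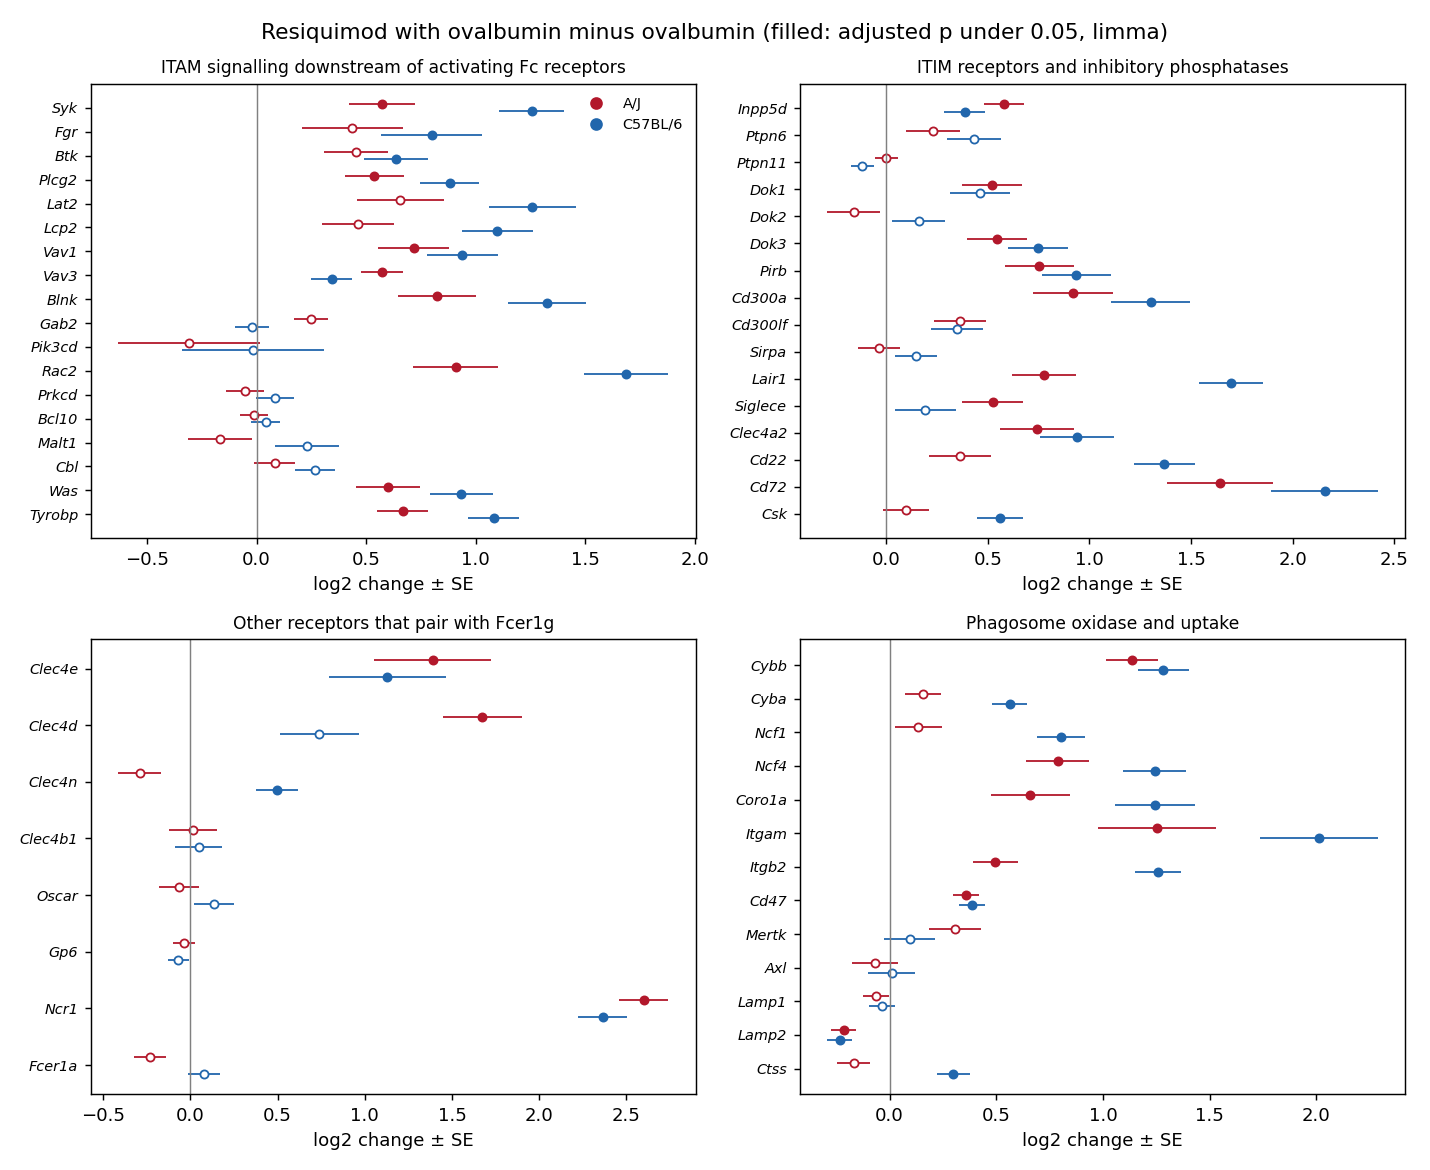
Log2 change with SE (horizontal axes) for resiquimod with ovalbumin against ovalbumin in genes of 4 pathway lists (vertical axes), A/J in red and C57BL/6 in blue, filled where called. In the ITAM panel Rac2 reaches 0.91 and 1.69, and in the ITIM panel Cd72 reaches 1.64 and 2.16.

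Other receptors that use the Fcer1g chain were measured for 8 of 12 listed genes. With ovalbumin none was called by limma in either strain (3 and 1 had an unadjusted p under 0.05 in A/J and C57BL/6), and the largest values were Clec4e at 0.92 in A/J and Clec4b1 at 0.37 in A/J. With resiquimod 3 rose in each strain: the NK receptor Ncr1 by 2.60 in A/J and 2.36 in C57BL/6, the lectin Clec4e (Mincle) by 1.39 and 1.13, Clec4d by 1.67 in A/J and Clec4n (Dectin-2) by 0.50 in C57BL/6. The median of the 8 was -0.01 in A/J and 0.32 in C57BL/6. None was called lower, though 2 in A/J had an unadjusted p under 0.05 for a fall. Of 13 measured genes for the phagosome oxidase and uptake, 4 rose with ovalbumin in A/J, Ncf1 by 0.67, Ctss by 0.60, Itgb2 by 0.51 and Cyba by 0.37, and 1 in C57BL/6, Ctss by 0.36. With resiquimod 6 rose and 1 fell in A/J and 9 rose and 1 fell in C57BL/6. Itgam, the alpha chain of complement receptor CR3, rose by 1.25 and 2.01, Cybb, the catalytic subunit of the oxidase, by 1.14 and 1.28, and Ncf4 by 0.79 and 1.24, while Lamp2 gave -0.22 and -0.23.

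Among 10 other measured Fc receptor genes, Pigr, the epithelial carrier of polymeric immunoglobulin, rose with ovalbumin by 1.38 in A/J and 1.85 in C57BL/6 and then changed by -0.57 and -1.46 with resiquimod. Fcrls rose by 0.77 with ovalbumin in A/J and by 0.48 and 0.64 with resiquimod. Fcer2a, the low-affinity IgE receptor CD23, changed by -1.37 with resiquimod in A/J, and the B cell genes Fcrl1 and Fcrla rose by 1.38 and 1.33 in C57BL/6, where Fcrl1 in A/J rose by 0.70. In all, 2 rose in A/J and 1 in C57BL/6 with ovalbumin, and with resiquimod 2 rose and 2 fell in A/J and 3 rose and 1 fell in C57BL/6. The other chains of the high-affinity IgE receptor, Fcer1a and Ms4a2, had means of 2.8 and 2.9, below the 25th percentile of all values, 3.33. Of 11 immunoglobulin constant genes 4 were measured, and 1 was called with ovalbumin or resiquimod, Ighg3 at 2.04 for resiquimod in A/J.

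Of 15 measured regulators known to shift these receptors, 3 rose and 1 fell with ovalbumin in A/J and limma called none in C57BL/6, where 4 had an unadjusted p under 0.05 and the largest were Spi1 at 0.34 and Il4 at 0.30. Il4 and Il13 both rose by 0.43 in A/J, Ifngr2 by 0.45, and C5ar1, the C5a receptor, changed by -0.68. With resiquimod 3 rose and 2 fell in A/J and 6 rose and 1 fell in C57BL/6. C5ar1 rose by 1.27 and 1.40 and Il10ra by 0.87 and 1.50, and Spi1, which encodes PU.1, rose by 0.71 in C57BL/6 with 0.30 in A/J, not called. Il4 changed by -0.49 in A/J. Hc, the gene of complement C5, for which A/J is known to be deficient, was lower in A/J than in C57BL/6, with log2 differences of -1.79, -1.80 and -1.62 under PBS, ovalbumin and resiquimod, and changed with resiquimod by -0.69 and -0.88. Ifng gave 0.50 and 0.92 with resiquimod, not called, and its mean of 3.2, like those of Il4 and Il10, lay near the weakest signals.

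Markers of the cells that carry these receptors moved in the same samples. Of 12 monocyte and macrophage markers 7 rose with ovalbumin in A/J and 5 in C57BL/6, and 7 rose with resiquimod in each strain, with none called lower. In A/J 1 marker had an unadjusted p under 0.05 for a fall with ovalbumin and 1 with resiquimod. The mean level of this list was 8.13 to 8.28 in the PBS arrays, 8.50 to 8.86 in the ovalbumin arrays and 8.77 to 9.34 in the resiquimod arrays. C1qc, a complement gene of tissue macrophages, rose with ovalbumin by 0.95 in A/J and 0.76 in C57BL/6, C1qb by 0.93 and 0.74, and Mrc1 by 0.89 and 0.72. With resiquimod the macrophage marker Adgre1 rose by 0.82 and 1.41 and Ms4a7 by 0.99 and 1.23. Of 9 alveolar macrophage markers 2 rose with ovalbumin in A/J and 3 in C57BL/6, Chil3 by 2.29 and 1.11 and Itgax by 1.37 and 0.69 among them. An unadjusted p under 0.05 for a fall with ovalbumin was seen for 1 in A/J and 2 in C57BL/6. With resiquimod 1 rose and 3 fell in A/J, where Chil3 gave -0.77, and 3 rose in C57BL/6. The mean of the list was 7.90 to 8.01, 8.24 to 8.30 and 8.03 to 8.61 in the A/J arrays with PBS, ovalbumin and resiquimod. In the C57BL/6 arrays it was 7.36 to 7.69, 7.44 to 7.59 and 8.01 to 8.16, so PBS and ovalbumin overlapped there. The part of these cells in the Fc receptor changes was not tested.

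Markers of nonclassical monocytes, cells known for Fcgr4, rose with resiquimod in 6 of 9 genes in A/J and 7 of 9 in C57BL/6, with medians of 0.92 and 1.59. Treml4 rose by 1.82 and 2.70, Adgre4 by 1.05 and 2.12, Spn by 1.29 and 2.04 and Cx3cr1 by 1.34 and 1.30. Under resiquimod 7 of the 9 were lower in A/J than in C57BL/6, with -1.87 for Adgre4 and -1.39 for Treml4. The mean of the list was then 6.83 to 7.56 in A/J and 8.26 to 8.32 in C57BL/6. With ovalbumin 1 rose (Pglyrp1) and 1 fell (Cx3cr1) in A/J, and limma called none in C57BL/6, where 1 had an unadjusted p under 0.05. Under resiquimod other lists differed between the strains too. At an unadjusted limma p under 0.05, 7 of 9 NK markers were lower in A/J and 1 was higher. For neutrophils 4 of 9 were lower and for B cells 6 of 8, with 0 higher in either list. Of 12 monocyte and macrophage markers 2 were lower and 4 higher. The part of any of these cells in the strain difference of Fcgr4 was not tested.

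NK cells carry Fcgr3 and Fcer1g, and 8 of 9 NK markers rose with resiquimod in each strain. Gzma rose by 4.59 in A/J and 4.22 in C57BL/6, Gzmb by 3.52 and 4.31 and Prf1 by 3.24 and 3.63, and the mean of the list went from 4.22 to 5.02 over the PBS and ovalbumin arrays to 6.41 to 6.81 in A/J and 7.40 to 7.67 in C57BL/6 with resiquimod. Neutrophil markers rose in 5 of 9 genes in A/J and 7 of 9 in C57BL/6, S100a8 by 2.39 and 1.35 and Mmp8 by 2.34 and 1.54, and their mean was 5.82 to 6.74 without and 6.84 to 7.66 with resiquimod. Classical monocyte markers gave 1 higher and 1 lower of 6 in A/J (F13a1 by 0.90, Fn1 by -0.55) and none called by limma in C57BL/6, where 2 had an unadjusted p under 0.05. Their mean was 8.25 to 8.57 with PBS, 8.63 to 8.92 with ovalbumin and 8.63 to 9.48 with resiquimod. The part of these cells in the changes was not tested.

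For Fcgr2b, which B cells and dendritic cells also carry, limma called no B cell marker of 8 with ovalbumin, and none had an unadjusted p under 0.05. With resiquimod it called none in A/J, where 4 had an unadjusted p under 0.05, and 6 higher in C57BL/6. Ms4a1 (CD20) rose there by 1.98 and Cd79b by 1.57, against 0.65 and 0.76 in A/J, not called. The B cell mean was 5.64 to 6.79 in the PBS and ovalbumin arrays, 6.30 to 7.0 in A/J with resiquimod and 7.33 to 7.62 in C57BL/6 with resiquimod. Dendritic cell markers gave 1 higher of 8 with ovalbumin in each strain, Batf3 by 1.44 and 1.27, and with resiquimod 5 lower in A/J and 3 in C57BL/6. Cd209a, a marker of monocyte-derived dendritic cells, changed by -3.05 and -2.59 and Batf3 by -1.38 and -1.15. Their mean was 5.35 to 5.66 with PBS, 5.61 to 5.90 with ovalbumin and 4.99 to 5.16 with resiquimod. The part of these cells in the course of Fcgr2b was not tested.

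Eosinophil markers rose in 3 of 6 genes with ovalbumin in A/J, Prg2 by 1.14, Epx by 0.42 and Ccr3 by 0.40, and the means of Epx and Ccr3, like that of Il5ra, lay below the 25th percentile of all values. In A/J 5 of 6 were lower with resiquimod, with -2.53 for Alox15 and -1.10 for Prg2. In C57BL/6 limma called none with ovalbumin, where 3 had an unadjusted p under 0.05, and 1 rose and 2 fell with resiquimod. The means of the list were 4.03 to 4.30, 4.59 to 4.93 and 3.66 to 4.03 in the A/J arrays with PBS, ovalbumin and resiquimod, and 3.85 to 4.25 in the C57BL/6 arrays. Of 10 mast cell and basophil markers limma called none with either treatment, and 0 to 3 had an unadjusted p under 0.05 in each comparison, with a list mean of 4.56 to 5.05 in all arrays and Fcer1a, Ms4a2, Mcpt8 and Tpsab1 below the 25th percentile. The part of eosinophils in the Fc receptor changes was not tested.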

How the data were processed

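Whole-lung RNA of 18 arrays in 6 groups of 3 was analysed from the deposited table of log2 expression values, which the authors made with RMA and affy per the submitters' processing notes (no version is given); depth has no meaning for arrays, and the 3 arrays per group limit the precision. Values run from 2.00 to 14.03. The labels name biological replicates, and a p-value here reflects only how much these arrays vary.

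After 64 control probe sets were left out, 45037 were fitted in limma 3.58.1 (R 4.3.3) as 6 group means with 12 residual degrees of freedom and eBayes, two-sided, and the pipeline was tested on simulated data. Genes take their highest-mean single-gene probe set (platform annotation: 34945 probe sets name 1 gene, 932 several, 9160 none). The receptor genes, lists, tests and rules were chosen with earlier results of these data known. Named genes are the 6 receptors, up to 4 called genes with the largest changes per list and comparison, or up to 2 as values where none was called, and the 3 genes with the highest r to each receptor, passing over Gm and Rik names. Alternatives were the next probe set, a fit to the compared groups, a replicate block, an intensity trend, 2 array scalings, a filter at a mean of 3.33, leaving out arrays and, added after seeing the data, leaving out 8 arrays with squamous transcripts or a term for them.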

Additional observations from a re-analysis of the deposited data

Results flagged for a closer look

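The effect of resiquimod relative to ovalbumin differed between the strains in 2 of the receptor genes by the test of the difference itself in limma. For Fcgr2b the difference, A/J minus C57BL/6, was -1.20 ± 0.18 (SE, adjusted p = 0.00668). For Fcgr4 it was -0.90 ± 0.20 (adjusted p = 0.0424). The Fcgr4 call held in 5 of the 18 fits that leave out 1 array, and neither call held without the arrays with squamous transcripts (adjusted p = 0.139 and 0.393). With 75th percentiles set equal, Fcgr4 had adjusted p = 0.0503.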

How the results depend on the processing

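Of 66 results for single receptor genes 33 were called, 27 of these in every fit that leaves out 1 array and 17 under every alternative, and none of the 33 reversed. Without the arrays with squamous transcripts the number of genes called was 1 for ovalbumin in A/J, 1 in C57BL/6, 1 between strains under PBS, 0 under ovalbumin and 0 for the strain difference in the resiquimod effect, with fewer arrays. Next probe sets left 3 calls for resiquimod against PBS in A/J. Strain calls under ovalbumin numbered 2 with a replicate block, which added Fcgr4 (adjusted p = 0.0443), and 2 with an intensity trend, which added Fcgrt (adjusted p = 0.0387), and the strain difference in the resiquimod effect kept 1 with 75th percentiles set equal. Leaving out 1 array gave 1 to 4, 1 to 3 and 1 to 2 calls between strains under PBS, under ovalbumin and for the resiquimod effect. With next probe sets the shift toward Fcgr2b after ovalbumin was -1.37 and -0.64 (Fcgr1, A/J and C57BL/6), -0.65 and -0.19 (Fcgr3), -1.42 and -0.94 (Fcgr4) and -0.79 and -0.63 (Fcer1g), and after resiquimod 1.32 and 0.23 (Fcgr1) and in A/J 1.20 (Fcgr3), 3.56 (Fcgr4) and 1.76 (Fcer1g). Uncalled values near 0 changed sign: Fcgrt for resiquimod against PBS in C57BL/6 (-0.0084 with 75th percentiles equal, -0.13 without squamous arrays), Fcgr1 with its next probe set (-0.16 between strains under PBS, 0.18 for the strain difference in the resiquimod effect), and Fcgr3 in the strain difference of the ovalbumin effect (-0.17 without squamous arrays). Leaving out 1 array gave, for Fcgr4 with ovalbumin, -0.18 to 0.074 in A/J and -0.29 to 0.028 in C57BL/6. It gave for Fcgrt -0.068 to 0.050 (ovalbumin, C57BL/6), -0.16 to 0.022 (resiquimod against ovalbumin, A/J), -0.022 to 0.096 (resiquimod against PBS, C57BL/6) and -0.052 to 0.067 (strains, PBS). For the strain difference in the ovalbumin effect it gave -0.019 to 0.15 (Fcgr3) and -0.096 to 0.22 (Fcgr4), and in the resiquimod effect -0.14 to 0.071 (Fcgr1). Replicate numbers were not taken to pair the arrays: deviations of same-numbered arrays correlated with r from -0.63 to 0.61 (median 0.18, over 0.1 in 27 of 45 pairs), against a median of -0.13 for other pairs (over 0.1 in 39 of 90). The block also ended the calls of Fcgr2b for resiquimod against PBS in A/J (adjusted p = 0.0558) and between strains under PBS (adjusted p = 0.0690). The Fcgr2b strain call under PBS was lost too with a term for squamous transcripts (-0.39, adjusted p = 0.0669) and with its next probe set (-0.26, adjusted p = 0.248). Weak probe sets such as those of Il4, Ifng and Fcer1a limit what falls could be seen.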
